A study of Mus musculus with 6 samples.

Results

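The genes followed here are 10 inhibitors of the cell cycle and markers of senescence: the cyclin-dependent kinase inhibitors Cdkn1a, Cdkn1b, Cdkn1c, Cdkn2a, Cdkn2b and Cdkn2c, the tumour suppressors Trp53 and Rb1, the p53 antagonist Mdm2, and the nuclear lamina gene Lmnb1. They were taken by symbol from the 24346 gene symbols measured by RNA sequencing, and all 10 were found. The cells were hepatic stellate cells, pericytes that store vitamin A in the liver, from wild type C57BL/6 mice aged 35 weeks. They came from livers of mice fed a normal diet, from the non-tumour region of livers of mice fed a high-fat diet, or from the tumour region of such livers, and each source was taken through perfusion once at 37 degrees and once at 6 degrees. All 6 libraries thus share strain, genotype, age and a sort for CD49a without CD31 or CD45.2, and differ in diet and region and in the temperature of isolation. Each of the 6 groups had 1 library, and the labels do not say how many animals or livers a library pooled, or whether the tumour and non-tumour cells came from the same livers. The study asked what warm incubation does to the transcriptome of isolated cells.

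Cyclin-dependent kinase inhibitors bind the kinases that drive a cell from growth into DNA replication. The Cip/Kip proteins p21 (Cdkn1a), p27 (Cdkn1b) and p57 (Cdkn1c) act on several cyclin-kinase pairs, and the INK4 proteins p16 (from Cdkn2a, which also encodes p19Arf), p15 (Cdkn2b) and p18 (Cdkn2c) act on the kinases that pair with D-type cyclins. With those kinases blocked, the RB protein keeps E2F factors from switching on replication genes. p53 (Trp53) is held at low levels by the ubiquitin ligase MDM2, and both Cdkn1a and Mdm2 are among its best known targets. Senescent cells are known for raised p21 and p16, for loss of lamin B1 (Lmnb1) and for a secretory programme of cytokines, proteases and growth factor binding proteins. In liver fibrosis, senescence of activated stellate cells has been described as a brake on matrix production.

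Levels are given as FPKM, the deposited unit, in which fragments are scaled to transcript length and to library size. Differences are on the scale of log2(FPKM + 1), which understates changes of low genes, and come from a linear model with source and temperature as additive terms (limma). Their standard errors rest on 2 residual degrees of freedom (5.37 with limma's prior), and p-values carry the Benjamini-Hochberg adjustment over the 11557 genes whose mean reached 1 FPKM; an adjusted p under 0.05 counts as passing. The p-values set each difference only against how far these 6 libraries depart from additive effects, and both may be technical. With 1 library per group they do not measure the spread between replicate libraries. An estimated 1.66e+07 to 2.34e+07 fragments lay behind each library. The stellate cell genes Lrat (335 to 538 FPKM), Reln (235 to 353) and Des (93.8 to 135) were high in all 6. Transcripts of the antigens sorted against were present: Pecam1, which encodes CD31, was at 0.9, 9.99 and 10.7 FPKM at 37 degrees and 31.4, 90.6 and 53 FPKM at 6 degrees in normal diet, non-tumour and tumour cells, and Ptprc, which encodes CD45, was between 0.375 and 2.73 FPKM outside the tumour region and at 5.44 (37 degrees) and 16.5 FPKM (6 degrees) in it. Itga1, which encodes CD49a, was at 87.6 to 204 FPKM. In bulk samples such as these, fewer cells of a type and less RNA per cell cannot be told apart.

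Of the 10 genes, 9 reached the mean of 1 FPKM and were tested. Lmnb1 was lower in both high-fat regions than in normal diet cells, and it was the only 1 of the 9 to pass in any contrast. Cdkn1a was at 18.2 to 20 FPKM in 5 libraries and at 152 FPKM in the tumour library of 37 degrees. Cdkn1c in the tumour region and Cdkn2c at 37 degrees had differences of -1.21 and -0.38 that did not pass, and Trp53 was between 33.4 and 37.3 FPKM throughout. Cdkn2a was at 0.323 FPKM or below in every library. With temperature 0 of the 9 passed by limma, where 5.13% of all genes passed (4.62% lower and 0.511% higher); 3 of the 9 (Cdkn1c, Cdkn2c and Rb1) had an unadjusted p under 0.05, as did 20.6% of all genes.

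**Figure D1:**
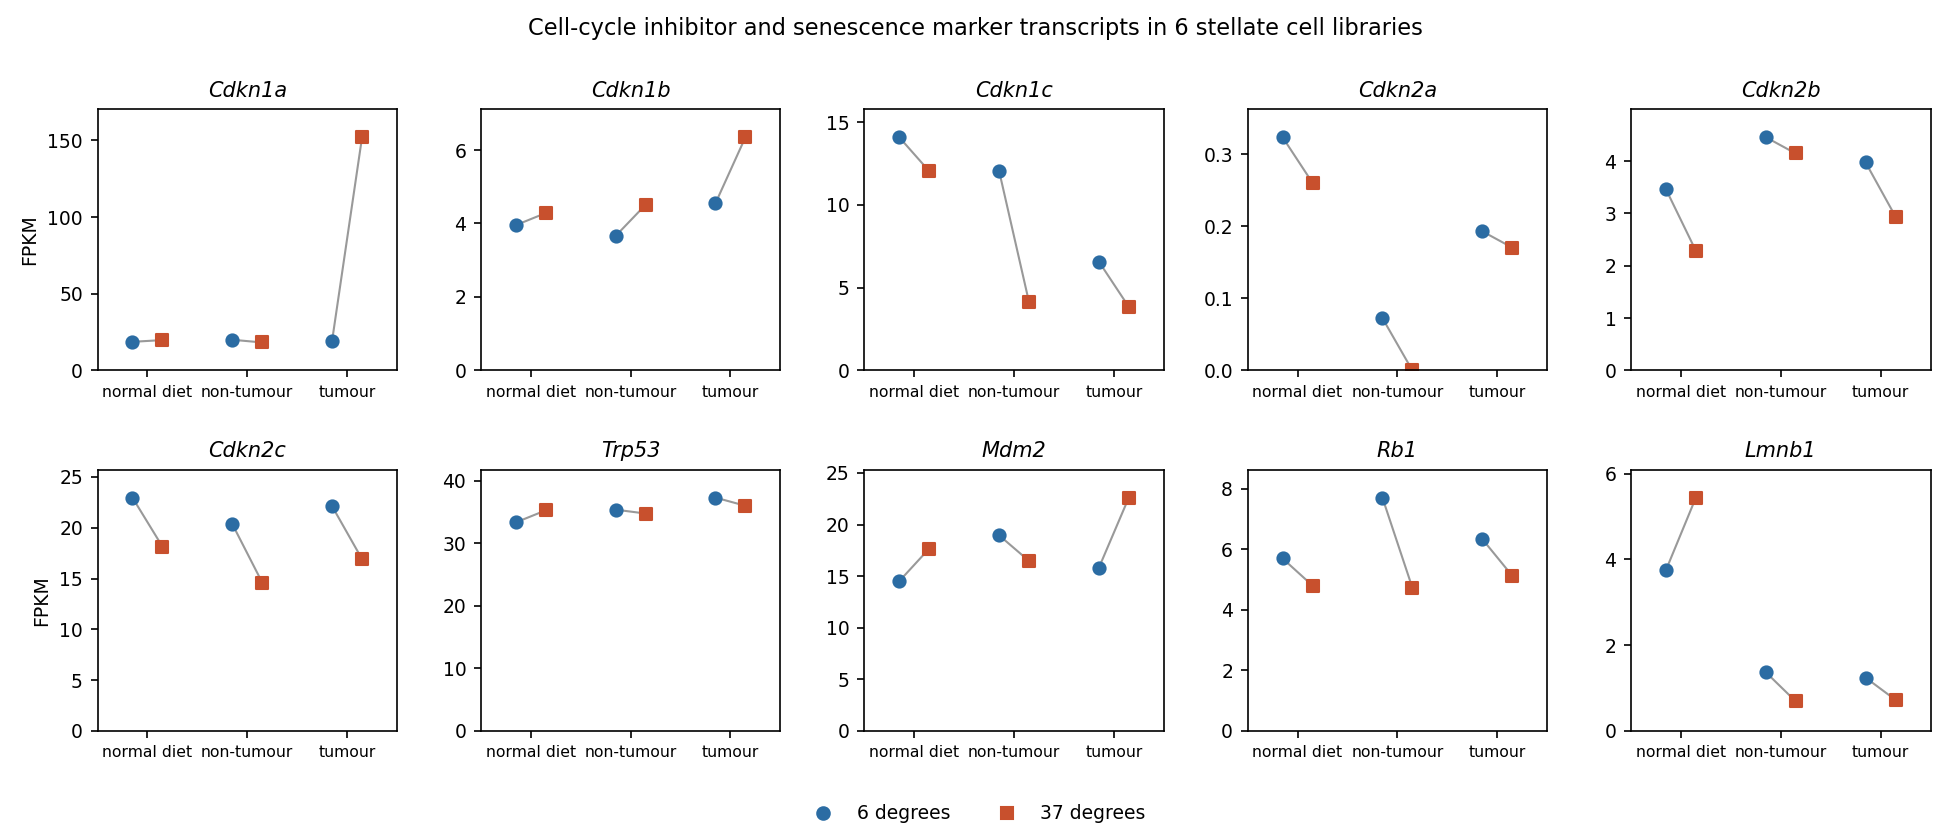
FPKM (vertical axis, linear, from 0, with its own scale in each panel) of the 10 genes in the 6 libraries. Circles are 6 degrees, squares are 37 degrees, and lines join the 2 libraries of a source; each point is 1 library without an error. Cdkn1a stands at 152 FPKM in the tumour library of 37 degrees against 18.2 to 20 in the others, and Lmnb1 is at 3.75 and 5.44 FPKM in normal diet cells against 0.687 to 1.37 in high-fat cells.

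Lmnb1 encodes lamin B1, a filament protein that lines the inner nuclear membrane (GRCm38 chromosome 18, 56707813 to 56753424, plus strand). Its level was 5.44 FPKM at 37 degrees and 3.75 at 6 degrees in normal diet cells, 0.687 and 1.37 FPKM in the non-tumour region, and 0.721 and 1.24 FPKM in the tumour region. All 4 high-fat libraries lay below both normal diet libraries, as they did for 14.6% of all genes tested. The ratio of FPKM between normal diet and tumour cells was 7.55 at 37 degrees and 3.02 at 6 degrees, and that between normal diet and non-tumour cells 7.92 and 2.74. These levels correspond to an estimated 300 and 249 fragments in the normal diet libraries and 33.1 to 76 in the high-fat libraries. The mean of the 4 high-fat libraries was 1.004 FPKM, so the gene would have been tested even at its high-fat level.

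In the tumour region Lmnb1 fell by 1.49 ± 0.27 (SE, log2 scale, 2 pairs, adjusted p = 0.0317 by limma), and in the non-tumour region it fell by 1.47 ± 0.27 (adjusted p = 0.044 by limma). These contrasts share the normal diet libraries and are not independent of each other. Of the 9 genes, 1 passed in each, where 9.35% of all genes passed for the tumour region (3.28% lower) and 5.56% for the non-tumour region (2.59% lower), so the count of members is close to the share among all genes. Between tumour and non-tumour cells Lmnb1 differed by -0.026 ± 0.27 (adjusted p = 0.982 by limma); in that contrast 0 of the 9 members passed by limma and 0 had an unadjusted p under 0.05, where 0.45% of all genes passed and 10.1% had such a p. The calls are sensitive to single libraries and to the residual degree of freedom that is lost with any library left out. Without either non-tumour library the tumour difference of Lmnb1 stayed at -1.49, while its p-value changed. The tumour call was lost without either non-tumour library or either tumour library or without the normal diet library of 37 degrees (limma adjusted p from 0.0532 to 0.132), and the non-tumour call without the same normal diet library or without either non-tumour library (0.138 to 0.248), and both were lost without a filter on low values (0.0823 and 0.113). With a pseudocount of 0.1 FPKM the non-tumour call was also lost (0.0615). The direction was lower in all 20 recomputations of both contrasts, which leaves out the stricter filter of 5 FPKM that the gene did not reach.

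**Figure D2:**
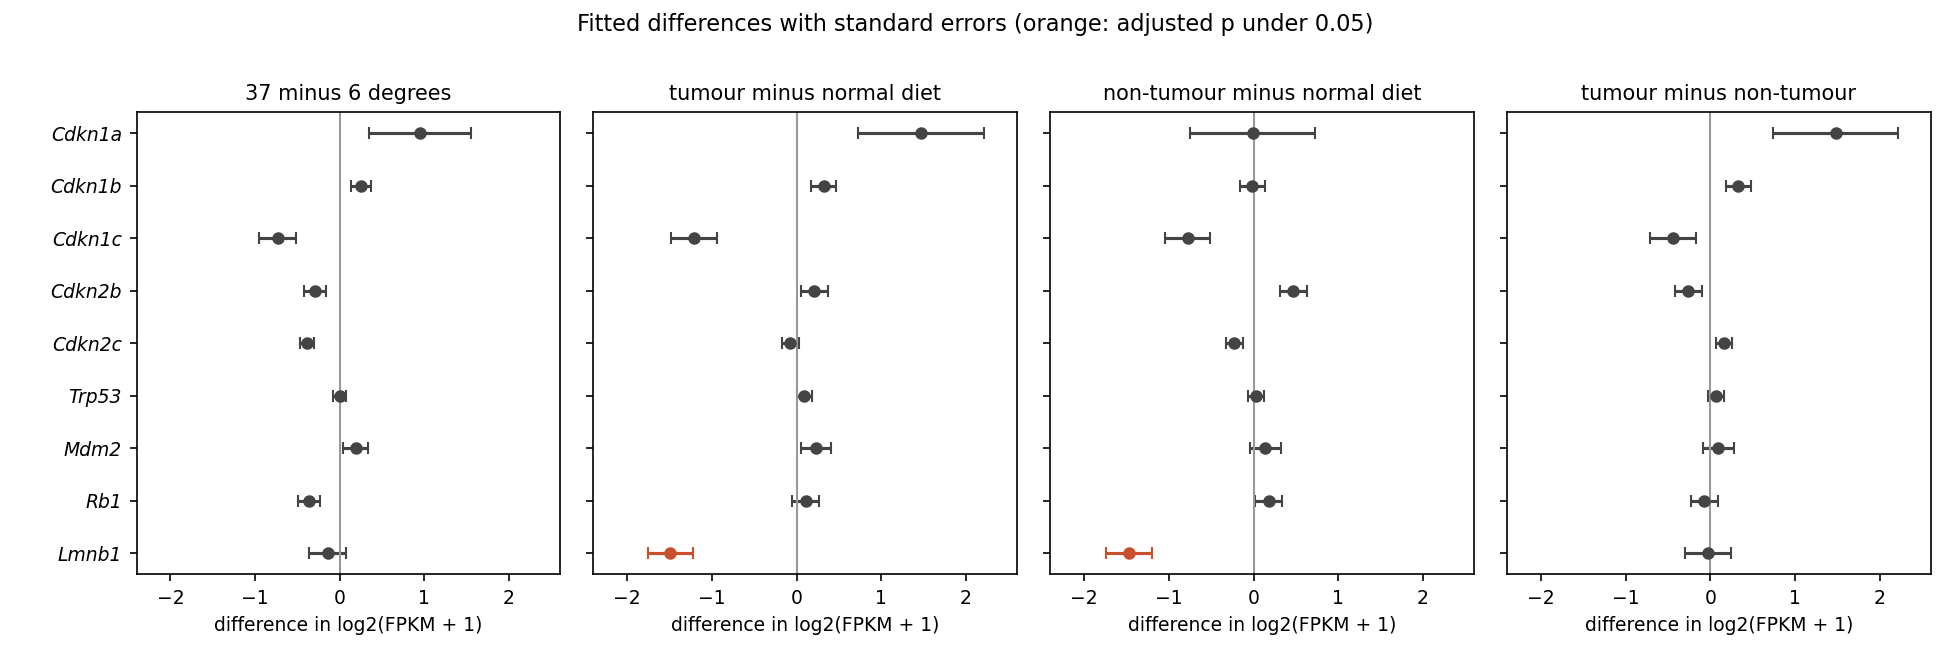
Fitted differences in log2(FPKM + 1) (horizontal axis) of the 9 tested genes in the 4 contrasts, with standard errors as bars; orange marks an adjusted p under the threshold. Lmnb1 is marked in both contrasts with normal diet, at -1.49 and -1.47, and Cdkn1a has the widest bars, with a standard error of 0.74 in each contrast of sources.

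Lmnb2, which encodes the other B-type lamin, was lower in the same libraries. Its level was at 7.15 and 8.44 FPKM (37 and 6 degrees) in normal diet cells, 1.72 and 3.48 in the non-tumour region and 1.54 and 4.06 in the tumour region. It fell by 1.29 ± 0.22 in tumour cells (adjusted p = 0.0269 by limma) and fell by 1.33 ± 0.22 in non-tumour cells (adjusted p = 0.0324 by limma). Tmpo, which encodes the lamin-binding LAP2 proteins, went from 48.6 and 53.6 FPKM in normal diet cells to 19.1 to 28.7 FPKM in the 4 high-fat libraries and fell, with differences of -1.09 ± 0.14 in tumour and -1.10 ± 0.14 in non-tumour cells (adjusted p = 0.0133 and 0.0151 by limma). Lmna, the A-type lamin gene, was at 66.8 to 129 FPKM in 5 libraries and at 235 FPKM in the tumour library of 37 degrees; its temperature difference of 0.70 ± 0.22 did not pass (adjusted p = 0.166 by limma). Of the 15 genes of nuclear lamina and envelope in the list, Tmpo and Lmnb2 were the 2 that passed in each high-fat contrast, both lower. Of all genes 3.28% fell in the tumour and 2.59% in the non-tumour region. The list medians of -0.12 and -0.047 lay near the medians of all genes (0.011 and 0.03). Without the normal diet library of 37 degrees neither gene passed in either contrast, and without either non-tumour library neither passed for the non-tumour region. The tumour call of Lmnb2 was also lost without either non-tumour library (0.0685 and 0.0665), without the tumour library of 37 degrees (0.104) and with no filter (0.0797), and its non-tumour call with no filter (0.101) and with a pseudocount of 0.1 FPKM (0.0517). The non-tumour call of Tmpo was also lost without the normal diet library of 6 degrees (0.0544) and with no filter (0.0527). Of 22 other senescence-associated genes tested, 2 rose (Ets2 and Plaur) and 1 fell (Hmgb2) in the tumour region (6.07% and 3.28% of all genes). In the non-tumour region 1 rose (Ets2) and 1 fell (Hmgb2), beside 2.98% and 2.59% of all genes. These counts are near those shares. Plaur is also in the list of secreted factors followed below. Ets2, a transcription factor, went from 36.6 and 35.6 FPKM in normal diet cells to 64.6 to 77.5 in high-fat cells, with differences of 0.94 ± 0.11 in tumour and 1.02 ± 0.11 in non-tumour cells (adjusted p = 0.0125 and 0.0118 by limma). Plaur, the urokinase receptor gene, rose by 1.35 ± 0.18 in tumour cells, from 9.87 and 9.52 to 30.4 and 22.8 FPKM (adjusted p = 0.0163 by limma). These calls were lost without either normal diet library, that of Ets2 in the non-tumour region also without either non-tumour library, and that of Plaur also with no filter (0.0503). Hmgb2, a chromatin protein whose loss is another mark of senescence, was at 53.1 and 64.2 FPKM in normal diet cells and 19.4 to 33.2 in high-fat cells, and fell, with differences of -0.92 ± 0.15 in tumour and -1.41 ± 0.15 in non-tumour cells (adjusted p = 0.026 and 0.0118 by limma). Both calls were lost without any 1 normal diet or non-tumour library, and the tumour call also with no filter (0.0667).

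Genes of DNA replication and mitosis, many of them targets of E2F, were lower in the same libraries. Of 22 tested E2F target replication genes, 13 fell in the tumour region, where 3.28% of all genes fell, and 14 in the non-tumour region, where 2.59% fell, none rose, and all 22 had a negative difference in each (medians -0.99 and -1.04). Of 17 tested mitosis genes, 16 fell in each region, beside the same shares of all genes (medians -1.72 and -2.38). Tk1, the thymidine kinase of S phase, went from 25.1 and 35.4 FPKM in normal diet cells to 1.7 and 5.75 in the non-tumour and 4.83 and 11.1 in the tumour region. Rrm2, a subunit of ribonucleotide reductase, went from 16.4 and 20.6 FPKM to 0.649 and 2.51 and to 2.34 and 6.4. Both are lowest in the non-tumour library of 37 degrees and do not overlap with normal diet. Mki67, which encodes the proliferation antigen Ki-67, was at 3.94 and 4.9 FPKM in normal diet cells and 0.242 to 2.34 in high-fat cells. Leaving out 1 library moved these counts a great deal: without the normal diet library of 37 degrees, 2 replication genes and 5 mitosis genes fell in the tumour region, and 2 and 10 in the non-tumour region. Without the non-tumour library of 37 degrees 3 and 12 fell in the tumour region, without that of 6 degrees 4 and 13, and without the tumour library of 37 degrees 2 and 11; without either non-tumour library no gene of either list passed for the non-tumour region, where no gene at all passed. Without a filter on low values 2 replication and 7 mitosis genes fell in the tumour region and 2 and 11 in the non-tumour region, and with a pseudocount of 0.1 FPKM 9 replication genes fell in the non-tumour region.

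Mcm4 and Mcm5, subunits of the replicative helicase, had the pattern over the 6 libraries most like that of Lmnb1. Among 2199 genes spanning at least 1 on the log2 scale, their Pearson correlations with it were 0.993 and 0.989, followed by Ncapg2, a condensin subunit, and AI464131 (both 0.981). Mcm4 was at 28.1 and 21.5 FPKM in normal diet cells and 11.1 to 13 in high-fat cells. Mcm5 was at 16.8 and 12.9 FPKM against 3.22 to 6.04. As with Lmnb1, both were higher at 37 than at 6 degrees in normal diet cells and lower at 37 degrees in both high-fat regions. With 6 libraries that share source and temperature, these correlations are a description.

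**Figure D3:**
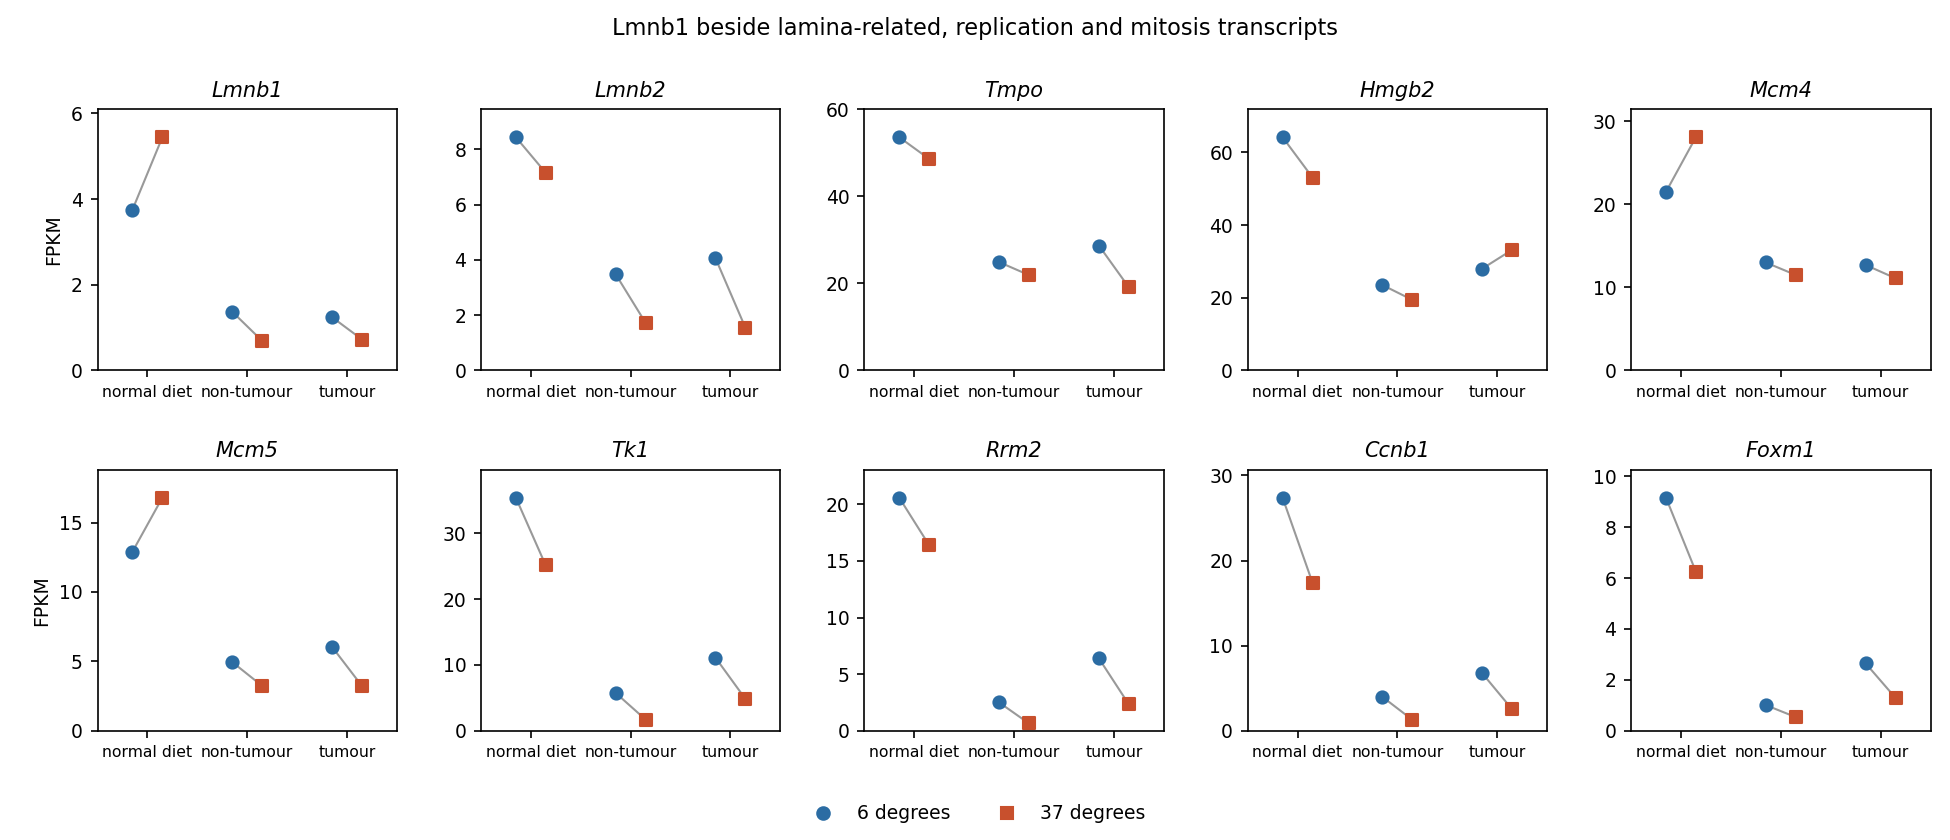
FPKM (vertical axis, linear, from 0, own scale per panel) of Lmnb1, the lamina-related genes Lmnb2 and Tmpo, Hmgb2, the replication genes Mcm4, Mcm5, Tk1 and Rrm2, and the mitosis genes Ccnb1 and Foxm1. Circles are 6 degrees, squares 37 degrees, 1 library each; every gene shown is higher in both normal diet libraries than in all 4 high-fat libraries, and Lmnb1, Mcm4 and Mcm5 slope upward from 6 to 37 degrees in normal diet cells.

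Markers of other cell types also differed between these libraries. Of 16 tested macrophage markers, 9 were higher and none lower in the tumour region than in normal diet cells. Their summed level was 56.3 and 592 FPKM (37 and 6 degrees) in normal diet cells, 41.8 and 708 in the non-tumour region and 1020 and 2560 in the tumour region. Between the normal diet and non-tumour libraries of 37 degrees, Lmnb1 differed 7.92-fold. In this pair the macrophage sums were 56.3 and 41.8 FPKM and the endothelial sums 928 and 1760. The hepatocyte sums were 357 and 207 FPKM and the cholangiocyte sums 38.2 and 6.0. Of 17 endothelial markers, 2 passed as higher in the tumour and 4 in the non-tumour region, with sums of 928 and 2880 FPKM in normal diet, 1760 and 5770 in non-tumour and 1440 and 3190 in tumour cells. The hepatocyte sum was 357 and 666 FPKM in normal diet cells and 207 to 331 in high-fat cells, with 3 of 12 tested markers lower in each region. The cholangiocyte sum was 38.2 and 60.7 FPKM in normal diet, 6.0 and 4.61 in non-tumour and 25.1 and 23 in tumour cells. The 1 marker tested, Spp1, passed as lower in the non-tumour region (-3.18). Spp1 is also in the myofibroblast list, so this call is not particular to cholangiocytes. Krt19 was at 0 in 5 libraries and 0.0467 FPKM in the tumour library of 37 degrees. Markers of mesothelium and portal fibroblasts summed to 24 to 54.5 FPKM, with Msln at 0 in all 6 libraries. Of 11 myofibroblast markers, 5 were higher in the tumour region (median 0.82) and 4 higher and 1 lower (Spp1 again) in the non-tumour region. The neutrophil sum was 1.42 and 1.81 FPKM in normal diet, 1.58 and 11.3 in non-tumour and 10.1 and 58.1 in tumour cells. The stellate cell sum was 23600 to 38300 FPKM. The part of other cell types in the Lmnb1 difference was not tested.

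Cdkn1a encodes p21 (chromosome 17, 29090976 to 29100727, plus strand). It was at 19.8 and 18.6 FPKM (37 and 6 degrees) in normal diet cells, 18.2 and 20 in the non-tumour region, and 152 and 19.5 in the tumour region. The tumour library of 37 degrees thus held 7.82 times the level of its partner at 6 degrees and 8.36 times that of the non-tumour library of 37 degrees, while the other 5 libraries lay within 18.2 to 20. Of all tested genes, 19 (0.164%) were in this library at least 5 times every other library. No contrast passed: temperature gave 0.95 ± 0.60 (3 pairs, 0.082 in normal diet, -0.13 in non-tumour and 2.90 in tumour cells, adjusted p = 0.43 by limma), and the tumour region gave 1.47 ± 0.74 against normal diet (adjusted p = 0.28 by limma) and 1.48 ± 0.74 against the non-tumour region (adjusted p = 0.56 by limma). Without either tumour library the temperature difference was -0.023, as no tumour pair was left. Without the tumour library of 37 degrees, the tumour difference against normal diet was 0.0076. Without that of 6 degrees the tumour difference was 2.94 against normal diet (adjusted p = 0.0046 by limma) and 2.94 against the non-tumour region (adjusted p = 0.00985 by limma), in a fit that assumes the lone tumour library varies like the rest. Whether the temperature difference itself differs between sources was not tested, as each has 1 library at each temperature.

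The 18 other genes at least 5 times higher in that library include Socs1, a feedback inhibitor of cytokine signalling (130 against 4.94 to 7.68 FPKM in the other 5), the cytokine gene Il6 (17.9 against 0.0528 to 1.01), the stress factor Atf3 (1280 against 11.2 to 179) and Myc (215 against 13.3 to 33.8); these 4 were chosen after their values were seen. By correlation over the 6 libraries, the genes most like Cdkn1a included Socs1 (r = 0.994), Hexim1, an inhibitor of the elongation factor P-TEFb (0.993, 3.47 to 4.02 FPKM in 5 libraries and 13.4 in the tumour library of 37 degrees), and Pcf11, a factor of transcript cleavage (0.992, 3.91 to 4.97 and 15.6 FPKM). With 1 library far from the rest, each such correlation rests on that library. The summed level of 30 immediate early genes, the first to respond to a stimulus, was 22000 FPKM there against 1290 to 8270 in the others. In normal diet cells that sum was 8270 FPKM at 37 degrees and 1290 at 6 degrees, and in the non-tumour region 3740 and 3320. The macrophage sum was 1020 FPKM in the tumour library of 37 degrees and 2560 in its partner at 6 degrees, and its part was not tested. The part of isolation, tumour region or this library alone cannot be told apart.

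**Figure D4:**
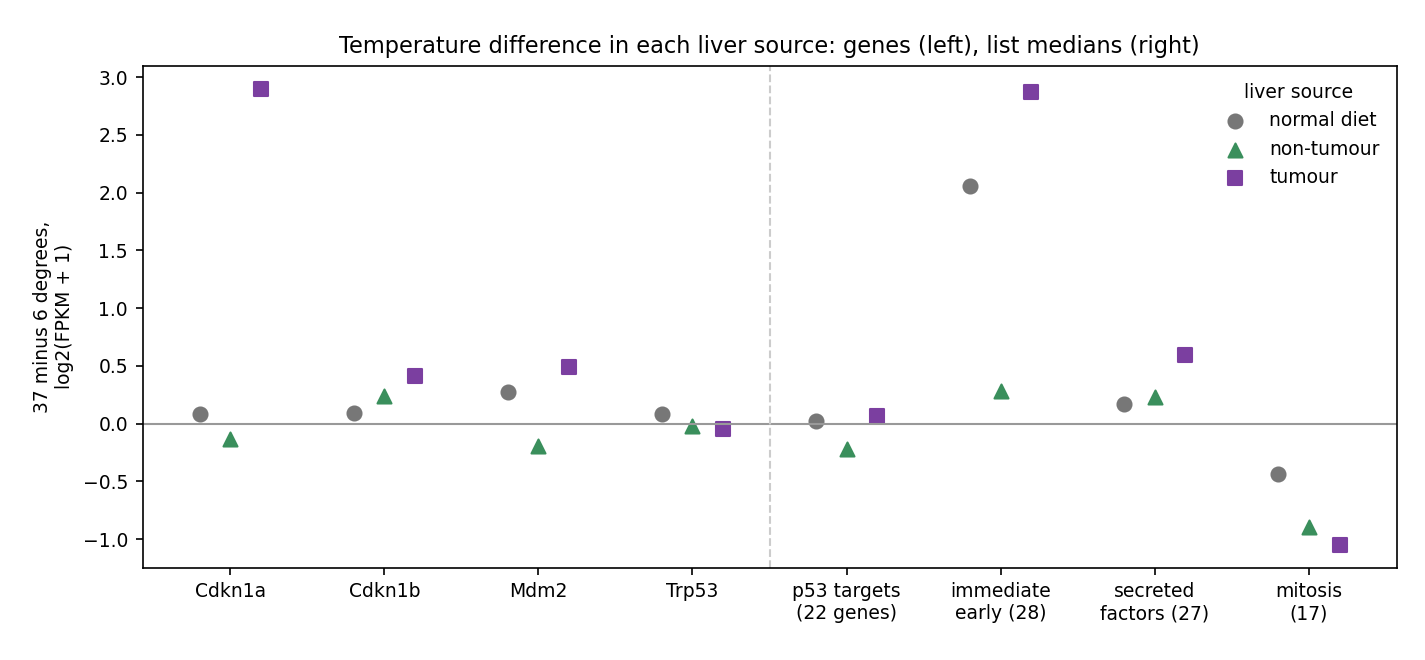
Difference between 37 and 6 degrees in log2(FPKM + 1) (vertical axis) in each liver source, for 4 genes on the left and for the medians of 4 gene lists on the right; each point is 1 pair of libraries or a median over such differences, without an error. Cdkn1a is at 2.90 in tumour cells and near 0 in the other sources, while the median of p53 targets is at 0.025, -0.22 and 0.063 in normal diet, non-tumour and tumour cells. The list of p53 targets shares Btg2 with the immediate early genes and Gdf15 with the secreted factors.

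Cdkn1b, Cdkn1a and Mdm2 each had their highest value in the tumour library of 37 degrees, so the promoters of these 3 genes are shown, as the 250 bases before each transcription start in RefSeq (GRCm38.p6), 5′ to 3′ on the strand of the gene, with matches to searched motifs in capitals. RefSeq's table held promoters of 7 of the 10 genes; Cdkn1c, Rb1 and Lmnb1 had no entry. The TATA box was searched as TATAAA, the CCAAT box by its letters, the GC box as GGGCGG, the AP-1 site as TGANTCA, the E2F site as TTTCCCGC, the cell-cycle homology region as TTNGAA and the p53 decamer by its consensus, all on both strands and with overlaps allowed. For Cdkn1a the table has 2 starts.
Cdkn1a start 1, chr17:29090729-29090978, plus strand: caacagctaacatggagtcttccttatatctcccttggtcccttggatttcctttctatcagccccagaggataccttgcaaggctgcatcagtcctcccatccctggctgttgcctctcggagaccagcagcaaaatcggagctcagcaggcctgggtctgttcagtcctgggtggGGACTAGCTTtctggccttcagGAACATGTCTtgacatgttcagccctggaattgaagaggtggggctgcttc
Cdkn1a start 2, chr17:29093519-29093768, plus strand: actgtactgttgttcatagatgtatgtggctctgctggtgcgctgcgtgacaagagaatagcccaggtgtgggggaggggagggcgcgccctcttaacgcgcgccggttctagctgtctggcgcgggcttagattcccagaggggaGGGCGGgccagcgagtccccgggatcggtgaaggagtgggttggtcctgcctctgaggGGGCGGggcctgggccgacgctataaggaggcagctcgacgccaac
Mdm2, chr10:117710759-117711008, minus strand: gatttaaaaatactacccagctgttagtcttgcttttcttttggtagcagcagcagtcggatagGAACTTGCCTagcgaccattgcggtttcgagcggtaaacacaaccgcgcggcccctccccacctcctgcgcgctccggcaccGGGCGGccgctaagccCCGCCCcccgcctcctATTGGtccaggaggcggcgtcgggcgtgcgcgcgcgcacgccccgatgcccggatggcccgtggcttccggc
Cdkn1b, chr6:134920151-134920400, plus strand: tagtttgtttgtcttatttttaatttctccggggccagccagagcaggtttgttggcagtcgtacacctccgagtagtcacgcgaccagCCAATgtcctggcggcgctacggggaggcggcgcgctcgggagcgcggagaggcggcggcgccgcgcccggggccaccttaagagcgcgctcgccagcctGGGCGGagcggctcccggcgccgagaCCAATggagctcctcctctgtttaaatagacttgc

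The p53 decamer occurs in 7.13% of 32851 promoter windows of this length. Upstream of the first Cdkn1a start it has matches at positions -73 and -51, counted from the start, and Mdm2 has 1 at -186. The match at -51 opens the 20-base stretch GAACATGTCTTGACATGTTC (chr17:29090928-29090947), whose second 10 bases have 1 mismatch to the decamer, at their position 1. It lies 2841 bases upstream of the second start. GC boxes, present in 32.7% of windows, are at -104 and -46 before the second Cdkn1a start, at -104 and -88 in Mdm2 and at -61 in Cdkn1b. CCAAT boxes, in 33.8% of windows, are at -72 in Mdm2 and at -161 and -35 in Cdkn1b. No TATA box, AP-1 site, E2F site or cell-cycle homology region, which occur in 12.4%, 6.75%, 0.895% and 36.4% of windows, was found in these 4 windows. Such matches describe letters only.

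Cdkn1b encodes p27 (chromosome 6, 134920401 to 134925513, plus strand). Its level was 4.28 and 3.96 FPKM (37 and 6 degrees) in normal diet cells, 4.51 and 3.66 in the non-tumour region and 6.35 and 4.55 in the tumour region. It was higher at 37 degrees in each of the 3 sources, as were 23.4% of all genes, by 0.093, 0.24 and 0.41, and the mean of 0.25 ± 0.12 did not pass (adjusted p = 0.33 by limma). Against normal diet the tumour region differed by 0.32 ± 0.15 (adjusted p = 0.25 by limma) and the non-tumour region by -0.014 ± 0.15 (adjusted p = 0.976 by limma).

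Cdkn1c encodes p57 (chromosome 7, 143458339 to 143461050, minus strand), an imprinted gene expressed from the maternal allele. It was at 12.0 and 14.1 FPKM in normal diet cells, 4.14 and 12.1 in the non-tumour region, and 3.84 and 6.58 in the tumour region. Both tumour libraries and the non-tumour library of 37 degrees lay below the other 3. The tumour region differed from normal diet by -1.21 ± 0.27 (pairs -1.43 and -0.99), just short of the threshold (adjusted p = 0.056 by limma); with quantile normalization it passed (0.0469), as it did without the non-tumour library of 37 degrees (0.04) or of 6 degrees (0.0402). Under the other 8 settings it did not pass (0.0541 to 0.235), with the smallest difference, -0.82, without the normal diet library of 37 degrees. The temperature difference of -0.73 ± 0.22 (lower in 3 of 3 sources, -0.21, -1.35 and -0.65) did not pass either (adjusted p = 0.153 by limma). The gene Gm44732 lies antisense to 625 exonic bases of Cdkn1c, and without stated strand its reads cannot be told apart from those of Cdkn1c.

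Among the INK4 genes, Cdkn2c was the highest. It encodes p18 (chromosome 4, 109660876 to 109667189, minus strand) and was at 18.1 and 23.0 FPKM (37 and 6 degrees) in normal diet cells, 14.6 and 20.4 in the non-tumour region and 16.9 and 22.1 in the tumour region. All 3 libraries of 37 degrees lay below all 3 of 6 degrees, as did those of 9.41% of genes, and the difference was nearly equal in the sources (-0.32, -0.45 and -0.37). Its mean of -0.38 ± 0.083 had an unadjusted p of 0.00475 and did not pass after adjustment (0.0714 by limma, 0.0695 to 0.381 over the alternatives). Differences between sources were -0.23 ± 0.10 for the non-tumour and -0.074 ± 0.10 for the tumour region against normal diet (adjusted p = 0.273 and 0.695 by limma). The gene closest in pattern was the DNA damage kinase gene Chek2 (r = 0.992), at 2.83, 1.2 and 2.24 FPKM at 37 degrees and 5.1, 4.15 and 4.48 FPKM at 6 degrees in normal diet, non-tumour and tumour cells. Chek2 fell by 0.88 ± 0.16 with temperature (adjusted p = 0.0426 by limma), and did not pass without any 1 library (0.0789 to 0.215). Enho, Lrrc8b and Mis18a, the last a centromere factor, followed (0.953, 0.953 and 0.950).

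Cdkn2b encodes p15 (chromosome 4, 89306299 to 89311039, minus strand), an effector of growth arrest by TGF-beta. It was at 2.29 and 3.46 FPKM in normal diet cells, 4.15 and 4.46 in the non-tumour region and 2.94 and 3.98 in the tumour region. The order of levels puts both non-tumour libraries first, and the tumour and normal diet libraries overlap. Non-tumour cells differed from normal diet cells by 0.47 ± 0.16 (adjusted p = 0.176 by limma), tumour cells by 0.21 ± 0.16 (adjusted p = 0.467 by limma), and 37 from 6 degrees by -0.29 ± 0.13 (adjusted p = 0.297 by limma). The nearest genes in pattern were Man2b1 (r = 0.944), Prkcq (0.928), Cyp4b1 (0.920) and Adgrl2 (0.919). Of 20 tested genes of signalling upstream of these inhibitors, 2 rose and 1 fell in the tumour region (6.07% and 3.28% of all genes). In the non-tumour region 1 rose and 1 fell (2.98% and 2.59%), and all these counts are near those shares. The list is mixed and also holds genes that act against the inhibitors, such as Cks1b, the 1 that fell in each region. Its counts thus have no single meaning for growth inhibition. Without 1 library, 1 to 3 rose and 0 to 1 fell in the tumour region and 0 to 1 rose and 0 to 1 fell in the non-tumour region. Tgfb2, a TGF-beta ligand, went from 4.12 and 2.78 FPKM in normal diet cells to 17.2 and 9.59 in non-tumour and 20.9 and 21.5 in tumour cells. It rose by 1.66 ± 0.21 and 2.33 ± 0.21 (adjusted p = 0.0166 and 0.00743 by limma; the former was lost without either normal diet or either non-tumour library). Cks1b, a partner of the ligase that marks p27 for decay, fell by 2.03 ± 0.20 in non-tumour and fell by 1.14 ± 0.20 in tumour cells (adjusted p = 0.00896 and 0.0274 by limma). The non-tumour call was lost without the normal diet library of 37 degrees or either non-tumour library, and the tumour call without either normal diet library or the tumour library of 37 degrees.

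Cdkn2a (chromosome 4, 89274471 to 89294653, minus strand), whose p16 product is the most used marker of senescence, was under the 1 FPKM needed for a test. It was at 0.260 and 0.323 FPKM in normal diet cells, listed at 0 and at 0.0725 in the non-tumour region, and at 0.170 and 0.193 in the tumour region. These values stand for an estimated 0 to 6.77 fragments a library, so no difference was detectable at this depth. Levels between genes can be compared on the FPKM scale, which is per length: Cdkn2a had the lowest level of the 10 in every library and Trp53 the highest in 5, the exception being the tumour library of 37 degrees, where Cdkn1a was above Trp53.

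Trp53 (chromosome 11, 69580359 to 69591873, plus strand) was the most even of the members. Its level was 35.3 and 33.4 FPKM (37 and 6 degrees) in normal diet cells, 34.8 and 35.4 in the non-tumour region and 36.0 and 37.3 in the tumour region, a ratio of 1.119 between highest and lowest. The temperature difference was 0.0014 ± 0.075 and the tumour region differed from normal diet by 0.093 ± 0.092 (adjusted p = 0.994 and 0.579 by limma). Mdm2 (chromosome 10, 117688875 to 117710758, minus strand) was at 17.7 and 14.5 FPKM, 16.5 and 19, and 22.6 and 15.8 in the same order. It was highest in the tumour library of 37 degrees, and the temperature difference of 0.19 ± 0.15 changed sign between sources (0.27, -0.19 and 0.49; adjusted p = 0.518 by limma).

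Of 22 tested p53 target genes other than Cdkn1a and Mdm2, none rose and 1 fell with temperature, beside 0.511% and 4.62% of all genes. In the tumour region 2 rose against normal diet (6.07% of all genes rose), and none differed for the non-tumour region (2.98% rose and 2.59% fell). All these counts are near those shares. The list median in the tumour pair was 0.063 between 37 and 6 degrees, in which Cdkn1a differed by 2.90. The summed level of the list was 1120 FPKM at 37 degrees in tumour cells against 366 to 555 in the other libraries. The list shares Btg2 with the immediate early genes. Gdf15, a stress-induced secreted factor, was at 16.8 and 7.24 FPKM in tumour cells and 0.742 to 2.46 elsewhere. It rose by 2.04 ± 0.22 against normal diet (adjusted p = 0.0103 by limma), a call lost without the normal diet library of 37 degrees (0.0634), and by 2.6 ± 0.22 against the non-tumour region (adjusted p = 0.0383 by limma), a call kept without the tumour library of 6 degrees and lost without any other 1 library (0.0586 to 0.265). Pmaip1, which encodes the death-promoting protein NOXA, was at 7.65 and 4.5 FPKM in tumour cells and 0.109 to 0.812 elsewhere, and rose by 2.19 ± 0.36 against normal diet (adjusted p = 0.024 by limma). It entered the test through the tumour libraries, being under 1 FPKM in the other 4, and the call was lost without either normal diet library (0.138 and 0.0846), with a pseudocount of 0.1 FPKM (0.0577) and with no filter (0.0689). Without a single library the count for the tumour region ranged from 0 (normal diet, 37 degrees) to 5 (tumour, 6 degrees). Sesn1, a sestrin of the stress response, was at 9.6, 6.91 and 8.76 FPKM at 37 degrees and 13.7, 13.4 and 14 at 6 degrees. It fell by 0.65 ± 0.11 with temperature (adjusted p = 0.0402 by limma, 0.0684 to 0.23 without any 1 library). Beside the changes in the tumour region stand the macrophage sums of 1020 and 2560 FPKM there, whose part was not tested.

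Rb1 encodes the retinoblastoma protein (chromosome 14, 73183673 to 73325822, minus strand). It was at 4.80 and 5.70 FPKM in normal diet cells, 4.73 and 7.71 in the non-tumour region and 5.13 and 6.34 in the tumour region. As with Cdkn2c, all 3 libraries of 37 degrees lay below the 3 of 6 degrees, but the difference of -0.36 ± 0.13 did not pass (adjusted p = 0.205 by limma). Counting Cdkn1c and Cdkn2b, 4 of the 9 tested members were lower at 37 degrees in all 3 sources, beside 21.8% of all genes. Endothelial markers (15 of 17) and macrophage markers (11 of 16) passed as lower at 37 degrees too. Their part in the values of these members, or of Chek2 and Sesn1, was not tested. The opposite-strand gene Lpar6 shares 408 exonic bases with Rb1 and Rcbtb2 488, and Lpar6 was at 4.14, 6.51 and 11.5 FPKM at 37 degrees and 13.9, 47.8 and 32.5 at 6 degrees in normal diet, non-tumour and tumour cells. As the use of strand is not given, the part of Lpar6 in the Rb1 values was not tested. Of 14 tested RB and E2F family genes, 1 passed in each high-fat contrast, near the shares of all genes (9.35% tumour, 5.56% non-tumour). In both contrasts it was Tfdp2, a dimer partner of E2F factors. It fell from 11.3 and 10.6 FPKM to 5.05 to 5.74 in high-fat cells, with differences of -0.90 ± 0.13 in tumour and -0.89 ± 0.13 in non-tumour cells (adjusted p = 0.0173 and 0.0219 by limma). Of the fits that left out 1 library, the tumour call held in the 1 without the non-tumour library of 6 degrees and the non-tumour call in the 2 without a tumour library. With temperature the smallest adjusted p of the list was 0.237 (Tfdp1, 0.22 ± 0.088, limma).

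Of 14 tested cyclins and cyclin-dependent kinases, the targets of these inhibitors, 2 rose and 5 fell in the tumour region, where 6.07% of all genes rose and 3.28% fell, and 1 rose and 5 fell in the non-tumour region, where 2.98% rose and 2.59% fell. Without 1 library the tumour counts were 0 to 1 higher (0 without the normal diet or the tumour library of 37 degrees) and 3 to 4 lower (3 without the same libraries), and without either non-tumour library none passed in the non-tumour region. No gene of the list rose there under several other settings, among them the normal diet library of 37 degrees left out, quantile normalization and a pseudocount of 0.1 FPKM. The mitotic cyclins Ccnb1, Ccnb2 and Ccna2 fell with temperature as well, with differences of -0.96 ± 0.14, -1.13 ± 0.15 and -1.0 ± 0.17 (adjusted p = 0.0254, 0.0187 and 0.0349 by limma). These calls were lost without either non-tumour library, and those of Ccnb1 and Ccna2 also without either tumour library; with no filter none of the 3 passed (0.0702 to 0.109). In the same contrast 15 of 17 endothelial markers (median -3.02) and 11 of 16 macrophage markers (median -2.55) were lower, and their part in the cyclin values was not tested. Ccnb1 was at 17.4 and 27.4 FPKM (37 and 6 degrees) in normal diet cells, 1.29 and 3.99 in the non-tumour and 2.52 and 6.76 in the tumour region. Ccnd1, a D-type cyclin whose kinases the INK4 proteins oppose, went from 8.31 and 14.9 FPKM in normal diet cells to 18.5 and 22.6 in non-tumour and 26.0 and 29.4 in tumour cells. It rose by 1.24 ± 0.17 in the tumour region (adjusted p = 0.0165 by limma), a call lost without the normal diet or the tumour library of 37 degrees (0.0554 and 0.0629).

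Of 36 secreted factors of the senescence-associated programme 27 were tested, and 13 rose and 1 fell in the tumour region against normal diet, where 6.07% of all genes rose; the median was 1.35 against 0.011 for all genes. In the non-tumour region 4 rose and 1 fell (2.98% of all genes rose). Between tumour and non-tumour cells 4 rose (Gdf15, Mmp13, Mmp12 and Cxcl2), beside 0.45% of all genes. Mmp13 was at 3.98 and 7.36 FPKM in tumour cells and 0.13 to 0.543 elsewhere, so it entered the test through the tumour libraries. Gdf15 is also in the list of p53 targets. Igfbp3, which binds insulin-like growth factors, went from 354 and 318 FPKM in normal diet cells to 1640 and 963 in non-tumour and 1630 and 1210 in tumour cells, and rose by 1.90 ± 0.16 and 2.06 ± 0.16 (adjusted p = 0.00698 and 0.00716 by limma). Cxcl2, a neutrophil-attracting chemokine, went from 1.34 and 1.02 FPKM to 15.2 and 9.26 in tumour cells and rose by 2.57 ± 0.18 (adjusted p = 0.00694 by limma). Timp1, an inhibitor of matrix metalloproteinases, went from 103 and 77.9 FPKM to 211 and 154 in tumour cells and rose by 1.0 ± 0.079 (adjusted p = 0.00716 by limma). The tumour count ranged from 9 to 17 when 1 library was left out, whereas without either non-tumour library no secreted factor passed in the non-tumour region, 1 and 2 rose there without the normal diet library of 37 or 6 degrees, and 8 rose without either tumour library. Of the 4 between tumour and non-tumour cells, 2 still passed without the tumour library of 6 degrees, and 0 without any other library, with a pseudocount of 0.1 FPKM, with a mean of 5 FPKM or with no filter. Mmp12, a metalloproteinase known from macrophages, rose by 2.53 ± 0.26 in tumour cells, from 0.534 and 1.37 FPKM to 5.57 and 17.4 (adjusted p = 0.00941 by limma). Markers of macrophages (9 of 16) and myofibroblasts (5 of 11, a list that also holds Timp1) were higher in the same contrast, where the neutrophil sum was 10.1 and 58.1 FPKM in tumour cells against 1.42 and 1.81 in normal diet cells, and their part in these values was not tested.

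With temperature 4 secreted factors rose, beside 0.511% of all genes, and 1 fell. Plat, the tissue plasminogen activator, was at 56.9, 72.8 and 113 FPKM at 37 degrees and 30.6, 51.3 and 76.4 at 6 degrees in normal diet, non-tumour and tumour cells, and rose by 0.64 ± 0.10 (adjusted p = 0.0271 by limma). Timp1 rose by 0.42 ± 0.065 and Hgf by 0.41 ± 0.07 (adjusted p = 0.029 and 0.0381 by limma). Hgf is also in the list of 16 stellate cell markers, and all 16 had a positive temperature difference (median 0.34). The part of stellate cells in these values was not tested. None of the 4 that rose passed without any 1 library or without a filter on low values, and Mmp12, which fell, passed without either normal diet library and in no other fit that left out a library. Among other senescence-associated genes, Dpp4 fell with temperature from 39.7, 93.5 and 43.1 FPKM to 1.3, 10.2 and 7.77 (-3.18 ± 0.33, adjusted p = 0.0114 by limma, lost without either non-tumour library). Dpp4 is also expressed by endothelial cells, and 15 of 17 endothelial markers fell with temperature beside it, a list whose part was not tested.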

How the data were processed

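RNA sequencing of sorted stellate cells gave 1 library for each of 6 groups. The deposited values are FPKM, listed by the authors for 24346 symbols. Per the submitters' processing notes, TopHat2 2.1.1, Bowtie2, Cuffdiff 2.2.1 and mm10 were used; which annotation, strand setting and scaling they used is not given in these sources. Depth was estimated from the steps between low FPKM values, so fragment numbers are estimates. Genes were tested with limma 3.58.1 in R 4.3.3 on log2(FPKM + 1), with source and temperature as additive terms, a mean of at least 1 FPKM and 1312 small RNA symbols left out; an adjusted p under 0.05 passed. Tested on data simulated for temperature over 11557 genes, the fit recovered 56 of 100 genes changed by 1 and 94 of 100 changed by 2 on the log2 scale, with 8 false calls. The simulated data had no source differences and noise at the residual spread of the additive fit. They give no error rate for the contrasts of sources or for replicate libraries. Exon overlaps and gene positions are from GENCODE (GRCm38) and promoters from RefSeq. Alternatives were a pseudocount of 0.1, a mean of 5 FPKM, no filter, quantile normalization, median-ratio rescaling and leaving out each library. The members and gene lists were chosen with earlier results of these data known. Beyond the 10 members, genes were named from each list by the smallest p (at most 4 passing, or 2 where none passed), and by correlation for 4 members (4 genes each, of which 1 is not reported here); any other choice is stated. Sort antigens, cell identity and lamina genes are given as values.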

Additional observations from a re-analysis of the deposited data

Results flagged for a closer look

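The temperature difference of Lmnb1 went in opposite directions: 37 minus 6 degrees was 0.44 on the log2 scale in normal diet cells, -0.49 in the non-tumour region and -0.38 in the tumour region. The difference between these was not tested, since each source has 1 library at each temperature. A gene was singled out here where the sources differed in sign by at least 0.3 each. With 1 library per group, no library could be tested as an outlier of its group.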

How the results depend on the processing

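No paired analysis was possible because the labels give no replicate numbers and each group has 1 library; source and temperature are already terms of the model. Of 384 recomputed member differences 346 kept direction and side of the threshold, 11 no longer passed, 5 came to pass and 22 changed sign. Lmnb1 was lower in all 20 recomputed high-fat contrasts and passed in 9. The changes of sign outside left-out libraries were Trp53 with temperature under median-ratio rescaling (-0.0031) and, for the non-tumour region against normal diet under quantile normalization, Cdkn1b (0.02) and Trp53 (-0.032). Leaving out each library in turn gave ranges for temperature of -0.023 to 1.49 (Cdkn1a), -0.037 to 0.027 (Trp53) and -0.44 to 0.029 (Lmnb1); for tumour against normal diet of -0.0068 to 0.22 (Rb1); for non-tumour against normal diet of -0.82 to 0.80 (Cdkn1a), -0.13 to 0.10 (Cdkn1b), -0.027 to 0.089 (Trp53), -0.15 to 0.42 (Mdm2) and -0.0041 to 0.37 (Rb1); and for tumour against non-tumour of -0.90 to 0.022 (Cdkn1c), -0.19 to 0.38 (Mdm2), -0.26 to 0.11 (Rb1) and -0.28 to 0.23 (Lmnb1). Genes passing for temperature numbered 593, 330 with a mean of 5 FPKM, 0 with no filter (limma; unadjusted p under 0.05, 1020 higher and 1820 lower) and 63 to 475 without 1 library, the lowest without the non-tumour library of 6 degrees. For tumour against normal diet 1081 passed, 681 with a mean of 5 FPKM, 505 with no filter and 303 to 980 without 1 library; quantile normalization gave 541 higher and 471 lower against 702 and 379. For non-tumour against normal diet 643 passed, 265 with no filter and 0 to 894 without 1 library (0 without either non-tumour library, where limma's unadjusted p under 0.05 held for 1005 higher and 678 lower without that of 37 degrees). For tumour against non-tumour 52 passed, and 0 with a pseudocount of 0.1, a mean of 5 FPKM or no filter (unadjusted p under 0.05 for 722, 439 and 1153 higher, limma), and 0 to 165 without 1 library. Members passing went from 1 to 0 with a mean of 5 FPKM or no filter and to 2 with quantile normalization for the tumour region, and from 1 to 0 with a pseudocount of 0.1, a mean of 5 FPKM or no filter for the non-tumour region; without 1 library they numbered 0 to 1 in each contrast of sources and 0 for temperature. The causes were not tested, except that fewer genes or libraries enter by construction under a stricter filter or a left-out library. A left-out library also leaves fewer residual degrees of freedom, so a call can be lost where its difference stays the same.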
